A study of Mus musculus with 899 samples.

Results

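Plasma miRNA was compared at month 1 between irradiated C57Bl/6 mice that were sampled again at month 6 and irradiated mice of the same cohort that were not. The members were chosen from the sample labels alone: irradiated C57Bl/6 mice of the cohort coded G1 with a month 1 sample, split by whether the same mouse number also has a month 6 sample. They are 36 of the 497 C57Bl/6 plasma samples of the series and of the 225 from irradiated mice of this cohort, 8 with a month 6 sample and 28 without, and the 16 sham mice of the cohort at month 1 served as reference. A missing later sample is not the same as death, since plasma with hemolysis and thin libraries were also left out.

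All mice were young adults of the inbred strain C57Bl/6, with no other agent or allele in their labels. The irradiated mice received whole-thorax X-rays and the sham mice a sham treatment. In both irradiated groups the last sampled month was read from the labels: it was month 2 in 5 mice, month 3 in 2, month 4 in 8, month 5 in 13 and month 6 in 8. All 16 sham mice were sampled to month 6.

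The group with a month 6 sample held 4 males and 4 females, and the group without held 12 males and 16 females. Cohort mice carry a code A or B (bleed groups), with early samples at day 2 in A and at day 5 in B. The 8 mice were 4 of each, and the 28 were 16 of A and 12 of B. Of the 28, 12 have a day 2 sample and 12 a day 5 sample. Library totals ranged from 511138 to 1535915 reads (median 870220) with a month 6 sample, from 439625 to 5985958 (median 1089621.5) without, and from 481987 to 5515904 (median 1370138) in sham mice. Between the irradiated groups, 19 exact two-sided rank-sum or Fisher's tests of depth, sex, bleed group, scaling, the share of the most abundant miRNA and 14 summed marker lists passed no threshold. The smallest of the 19 p-values was 0.0766, for the summed fibroblast list (exact rank-sum test, adjusted p = 0.638).

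A miRNA is a short RNA that guides an Argonaute protein to messenger RNAs, chiefly through its seed, and lowers their output. Plasma miRNA comes from blood cells, endothelium and solid organs, packed in vesicles or bound to proteins. Some of it marks the tissue it left, and plasma therefore carries traces of red blood cells, liver, pancreas, muscle and gonad side by side. After thoracic irradiation, the miR-34 family is of interest because p53, the damage-response factor, switches on its genes.

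The mature sequences below are those on which the results turn, with the seed in capitals (bases 2 to 8 from the 5′ end). They were taken from RefSeq with positions on GRCm38.p6, which held 51 of the 62 named miRNA and 415 of the 483 tested. The first pair shows how close miR-18b-5p is to miR-18a-5p, and the next 3 are abundant in pancreas. The rest are among those that passed the adjusted test against sham mice in the larger irradiated group and not in the smaller.
miR-18b-5p: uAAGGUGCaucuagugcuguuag
miR-18a-5p: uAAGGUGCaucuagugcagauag
miR-216a-5p: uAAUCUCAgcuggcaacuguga
miR-216b-5p: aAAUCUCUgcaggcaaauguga
miR-217-5p: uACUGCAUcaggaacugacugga
miR-202-5p: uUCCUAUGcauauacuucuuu
miR-34a-5p: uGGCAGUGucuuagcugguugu
miR-199a-3p: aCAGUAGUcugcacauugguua
miR-199a-5p: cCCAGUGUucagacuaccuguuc
miR-125b-5p: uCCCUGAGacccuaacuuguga

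miR-18b-5p lies between genes at chrX:52742381-52742403 on the minus strand, and miR-18a-5p at chr14:115043867-115043889 on the plus strand. They share the seed and differ at 2 positions counted from the 5′ end of miR-18a-5p, A18U and A20U. miR-216a-5p (chr11:28757018-28757039), miR-217-5p (chr11:28763761-28763783) and miR-216b-5p (chr11:28746204-28746225) are neighbours on the plus strand, the first pair within an intron of the lincRNA Gm12082 and the last between genes. miR-216a-5p and miR-216b-5p differ at U1A, A8U, U11A and C17A, so their seeds differ by the last base. miR-199a-3p and miR-199b-3p have the same 22 bases, so their counts cannot be told apart and are not independent where both are counted. miR-202-5p was at chr7:139957732-139957752 on the minus strand, in an exon of the lincRNA Gm2044. miR-34a-5p was intergenic at chr4:150068473-150068494, and shares its seed with miR-34b-5p.

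Libraries that stand apart are given first, and the miRNA read in them were chosen with the results of the comparisons known. How many other miRNA set the same mice apart was not counted. Among the 28 mice without a month 6 sample, 4 females of bleed group A have no sample before irradiation or at day 2. Their last sampled months were 5, 5, 5 and 4. Their month 1 miR-34a-5p ran from 8.48 to 9.23 log2 CPM, and the other 24 mice without a month 6 sample ran from 7.03 to 7.94. The ranges did not overlap, although 12 of those 24 were also females (highest 7.94). Log2 CPM is the log2 of counts per 1000000 reads (CPM) after trimmed-mean (TMM) scaling, with a prior count of 2, and a library with 0 reads has a value of 0.23. The depth of the 4 libraries was 1415483 to 3539047 reads. The same mice had a mean miR-199a-5p of 3.36 against 5.12 in the other 24, and a mean miR-125b-5p of 13.45 against 14.19. Results that rest on these 4 libraries are given with and without them.

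With a month 6 sample against without, at month 1, the question was whether plasma miRNA early after exposure differed by later sampling. No miRNA passed the test. Of 483 miRNA tested by quasi-likelihood in edgeR, with Benjamini-Hochberg adjustment, 0 had an adjusted p under 0.05 (0%), and the smallest adjusted p was 0.27. At an unadjusted p under 0.05 there were 27, 12 higher and 15 lower in the mice with a month 6 sample. limma-voom, DESeq2 and quantile-normalized RPM with limma also called 0, with 17, 21 and 25 at an unadjusted p under 0.05. Without the 4 females that stand apart it was again 0, with 26 at an unadjusted p under 0.05. The same test called 0 in males alone, in females alone, in bleed group A alone and in bleed group B alone.

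The width of the intervals bears on what could have been missed. The 95% confidence interval reached 0.935 log2 units to either side in the median miRNA. Among the 70 miRNA with a mean of at least 9 log2 CPM it reached 0.376. None of these abundant miRNA differed by more than 1 log2 unit, their greatest difference was 0.823, and 5 had an unadjusted p under 0.05. These widths are medians of unadjusted intervals and mark no limit of detection. With 8 and 28 mice, differences smaller than these widths could go uncalled, and so could larger ones after adjustment. For miRNA with few reads, much larger ones were not called either. In the plot of all tested miRNA, the points of widest spread are miRNA with few reads.

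**Figure D1:**
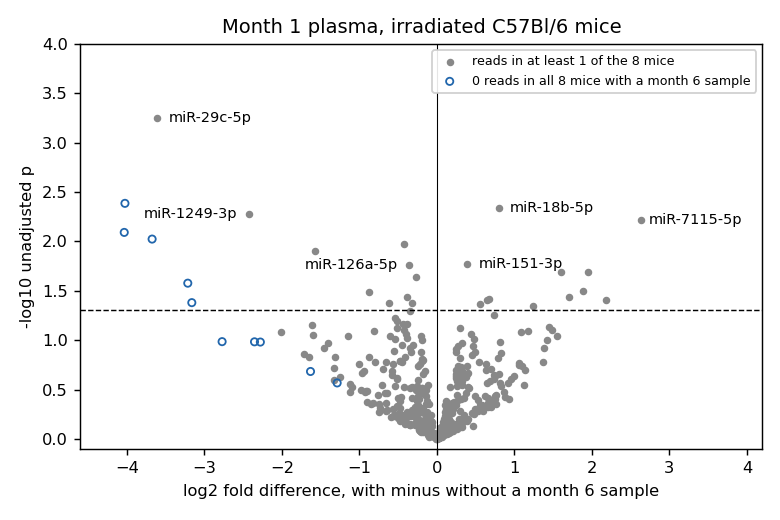
Each point is 1 of 483 miRNA at month 1, placed by its log2 fold difference (mice with minus mice without a month 6 sample) and by the -log10 of its unadjusted p. The dashed line marks an unadjusted p of 0.05, which 27 miRNA passed, and open circles are the 10 miRNA with 0 reads in all 8 mice with a month 6 sample.

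miR-18b-5p, of the X-linked miR-106a cluster whose members resemble the miR-17 cluster of growth-promoting miRNA, had the smallest p among those higher with a month 6 sample. In those 8 mice it stood at 4.99, 5.30, 5.43, 6.25, 6.32, 6.37, 6.54 and 6.82 log2 CPM, from 31 to 119 reads a library. Without a month 6 sample the lowest, median and highest values were 3.60, 5.36 and 6.16, and in sham mice 1.47, 4.61 and 5.40. The highest 5 of the 8 lay above every irradiated mouse without a month 6 sample, and 6 lay above every sham mouse, while the remaining values overlapped. The difference between irradiated groups was 0.80 log2 units (SE 0.28, 95% interval 0.25 to 1.34), with an unadjusted p of 0.0046 and an adjusted p of 0.586 in edgeR's quasi-likelihood test (Benjamini-Hochberg). It was 1.00 in males, 0.69 in females and 0.85 without the 4 females that stand apart. Within bleed group A it was 0.36 and within bleed group B 0.95, the former the lowest of 15 alternatives, none of which called it.

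Further members of the same X-linked cluster and the seed partner were read beside it, chosen after their values were seen. miR-18a-5p averaged 6.93, 6.74 and 6.71 log2 CPM in mice with a month 6 sample, without one, and sham. miR-106a-5p averaged 4.85, 4.94 and 4.35, and miR-20b-5p averaged 5.64, 5.77 and 5.27 in the same order. miR-363-3p averaged 1.68, 1.74 and 1.44, with 0 reads in 2 of 8, 10 of 28 and 6 of 16 mice. For miR-106a-5p, miR-20b-5p and miR-363-3p, the mean with a month 6 sample was the lower of the irradiated groups. Because miR-18a-5p and miR-18b-5p differ at 2 bases only, reads carrying errors there could be assigned to the other.

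Before irradiation miR-18b-5p averaged 4.68 ± 1.04 (SD, n = 8) in mice with a month 6 sample, 5.27 ± 0.62 (SD, n = 24) without and 4.74 ± 0.74 (SD, n = 16) in sham mice, so the mean with a month 6 sample was then the lower (edgeR, Benjamini-Hochberg adjusted p = 0.954). From before irradiation to month 1 it was higher in 8 of 8 mice with a month 6 sample, by 1.32 ± 0.68 log2 units (SD). Without one the change was -0.15 ± 0.98, up in 12 and down in 12 of 24 mice, and in sham mice it was -0.32 ± 1.00, up in 7 and down in 9. The changes of the irradiated groups differed by 1.41 log2 units (SE 0.39). Its unadjusted p was 0.00058 and its adjusted p 0.28 in edgeR's quasi-likelihood test (Benjamini-Hochberg). At day 5 the means were 5.31 with a month 6 sample (n = 4), 5.23 without (n = 12) and 5.18 in sham mice (n = 8), and at month 2 they were 4.82, 4.78 and 4.35, in the order seen at month 1 with the irradiated groups closer together. At day 2 the mean with a month 6 sample was 4.84 (n = 4), below 4.97 without (n = 12) and 4.97 in sham mice (n = 8). At month 3 the means were 4.29, 4.37 and 4.28 in the same order, so the irradiated groups were reversed. Month 4 gave 4.76, 4.46 and 4.51. At month 5 the means were 4.86 in the 8 mice, 4.16 in the 13 others then sampled and 4.53 in sham mice.

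**Figure D2:**
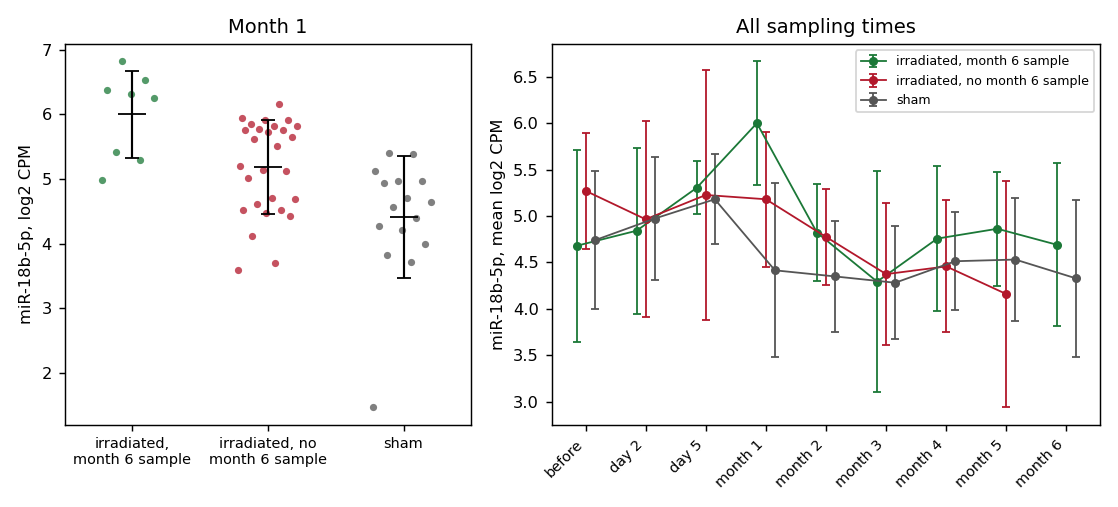
miR-18b-5p in log2 CPM: left, each mouse at month 1 by group with the mean and SD, and right, group means with SD at every sampling time. At month 1 the 8 mice with a month 6 sample (green) average 6.00, those without (red) 5.18 and sham mice (grey) 4.41, and at month 2 the irradiated groups average 4.82 and 4.78.

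No change from before irradiation to month 1 passed the test between the groups. In a fit with each mouse as its own control, 0 of 483 miRNA passed an adjusted p of 0.05 (0%) in edgeR's quasi-likelihood test, with 17 at an unadjusted p under 0.05 (13 higher, 4 lower). limma-voom also called 0, with 20 at an unadjusted p under 0.05. After miR-18b-5p, the smallest p-values belonged to miR-1843a-5p (0.80 log2 units), miR-1843a-3p (2.67), miR-98-5p of the let-7 family (0.97) and miR-1249-3p (-2.83). Their unadjusted p ran from 0.0141 to 0.0245, and each had an adjusted p of 0.98 (edgeR, Benjamini-Hochberg).

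Several of the smallest p-values came from miRNA that were close to the limit of detection. miR-29c-5p, the less abundant arm of the gene for the collagen-repressing miR-29c-3p, had 0 reads in 7 of 8 mice with a month 6 sample and 1 read in the other. Without a month 6 sample it had 0 reads in 11 of 28 and up to 57 reads, and in sham mice 0 in 4 of 16. The fitted difference was -3.61 log2 units (SE 1.04), with an adjusted p of 0.27 in edgeR's quasi-likelihood test (Benjamini-Hochberg). Its partner miR-29c-3p, at 205 reads or more in every library, averaged 8.88 ± 0.18 (SD) with and 9.18 ± 0.29 without, a difference of -0.33 (SE 0.16, unadjusted p = 0.0424 in edgeR).

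miR-34b-5p had 0 reads in all 8 mice with a month 6 sample and in 18 of 28 without, and miR-350-5p and miR-540-5p also had 0 in all 8, against 23 and 19 of 28. In sham mice these 3 were at 0 in 8, 10 and 9 of 16. No fold is given for them. The median total was 870220 reads in the 8 mice and 1089621.5 in the 28, and 0 reads in a shallow library allows a higher level than 0 reads in a deep one. Higher with a month 6 sample, miR-7115-5p was at 0 in 6 of 8 mice and in 26 of 28, and never above 3 reads. miR-674-5p (difference 1.60) was at 0 in 4 of 8 and 12 of 28, and miR-421-5p (1.94) in 5 of 8 and 22 of 28.

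At higher read counts the differences were small. miR-151-3p ranged from 9.46 to 11.31 log2 CPM (median 10.22) with a month 6 sample and from 9.14 to 10.86 (median 9.97) without, so the groups overlapped and the highest mouse had a month 6 sample. Its difference was 0.39 log2 units (SE 0.16, edgeR unadjusted p = 0.0169). miR-126a-5p, made from the endothelial gene Egfl7, ranged from 13.48 to 14.37 (median 13.95) with and from 13.93 to 15.02 (median 14.26) without, and from 13.53 to 14.48 in sham mice. It was lower by -0.35 log2 units (SE 0.15, edgeR unadjusted p = 0.0174), and the mean of the 8 mice was 13.94, as in sham mice. The adjusted p was 0.763 for both (edgeR, Benjamini-Hochberg).

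The marker lists of cells that shed miRNA into plasma were read next, by counts and medians, beside all 483 miRNA, of which 52.0% were lower with a month 6 sample and the median difference was -0.02 log2 units. No member of any list passed the adjusted test. Of 7 red blood cell miRNA, led by miR-16-5p and miR-486a-5p, 5 were higher, with a median of 0.24. Their summed level ran from 447200 to 753200 CPM (median 597400) with a month 6 sample, from 315100 to 1012000 (median 481000) without and from 327000 to 1133000 (median 503900) in sham mice. The sums overlapped widely. Sums of TMM-scaled CPM can pass the total that plain CPM allows.

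Of 10 leukocyte miRNA 5 were higher, with a median of 0.03. miR-150-5p, which is abundant in lymphocytes, averaged 12.96 ± 0.42 (SD) with and 13.24 ± 0.49 without, a difference of -0.31 (SE 0.19). miR-181b-5p, which acts in lymphocyte development, was the 1 leukocyte miRNA at an unadjusted p under 0.05, with a difference of 0.65 (SE 0.31). The let-7 family had 8 of 9 higher (median 0.26), led at an unadjusted p under 0.05 by let-7i-5p (0.56, SE 0.28).

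All 10 epithelial miRNA were lower, by a median of -0.25, with none at an unadjusted p under 0.05. The most abundant, miR-200a-3p and miR-205-5p, differed by -0.25 (SE 0.22) and -0.13 (SE 0.25). Of 11 fibroblast and fibrosis miRNA 9 were lower, by a median of -0.19, among them miR-21a-5p (-0.08, SE 0.13). Members of these lists share tissue sources and a common scaling, so their directions are not independent.

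Liver miRNA had 2 of 5 higher (median -0.22) and muscle miRNA 5 of 7 higher (median 0.06), the latter spread from 2177 to 88960 CPM in sum among the 8 mice. The endothelium and platelet list had 3 of 5 higher (median 0.04), the miR-17 and miR-106a clusters 3 of 9 (median -0.15), the brain list 2 of 6 (median -0.20) and the gonad list 2 of 2 (median 0.24).

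The miR-34 and miR-449 family had 2 of 6 higher (median -0.30). miR-34a-5p ranged from 6.75 to 8.05 log2 CPM (median 7.08) with a month 6 sample, from 7.03 to 9.23 (median 7.54) without and from 6.44 to 7.79 (median 7.12) in sham mice. The groups overlapped, and the difference was -0.38 log2 units (SE 0.23, 95% interval -0.84 to 0.07, edgeR unadjusted p = 0.0958). Without the 4 females that stand apart it was -0.11. At month 2 miR-34a-5p averaged 7.943 with a month 6 sample, 8.295 without (n = 28) and 7.43 in sham mice. Month 3 gave 8.85, 8.88 (n = 23) and 8.24 in the same order, and month 4 gave 8.30, 8.35 (n = 21) and 7.39. At month 5 the means were 8.243, 8.668 (n = 13) and 7.80, so the irradiated groups were closest at month 3. The survival list of the study holds 9 miRNA that were chosen within this series, so its counts are not independent evidence. The study drew them from survival models of both strains and split mice by their levels at days 2 and 5. Month 1 plasma of C57Bl/6 mice split by later sampling does not repeat that test. Of the 9 miRNA 3 were higher and 6 lower, from -0.38 to 0.41 with a median of -0.24, and 0 had an unadjusted p under 0.05 in edgeR's test. Its members besides miR-34a-5p, miR-150-5p and miR-199a-5p were miR-34b-3p (0.41), miR-122-5p of liver (0.14), miR-100-5p (0.04), miR-96-5p (-0.24), miR-802-5p (-0.29) and miR-199b-5p (-0.32).

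Against sham mice, each irradiated group was tested in the same way. The comparisons share the 16 sham mice, so they are set side by side and their likeness is no result. With a month 6 sample, 2 of 483 miRNA were called (0.414%), and miR-18b-5p rose and miR-1249-3p fell in edgeR's quasi-likelihood test (36 at an unadjusted p under 0.05, 9 higher and 27 lower). miR-18b-5p was 1.54 log2 units above sham (SE 0.31, 95% interval 0.94 to 2.14, adjusted p = 0.000278, edgeR, Benjamini-Hochberg). It remained called in each of 24 fits that left out 1 library (differences 1.40 to 1.65). In males alone it was 1.41 above sham (adjusted p = 0.0908, edgeR, Benjamini-Hochberg) and in females alone 1.74 (adjusted p = 0.013). Over 12 alternatives in edgeR, limma and DESeq2 its adjusted p (Benjamini-Hochberg) ran from 1.26e-05 to 0.0908. Without a month 6 sample it was 0.74 above sham (SE 0.24), with an adjusted p of 0.056.

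miR-1249-3p is a low-count miRNA in an exon of 5031439G07Rik, at chr15:84951545-84951566 on the minus strand. It had 0 reads in 6 of 8 mice with a month 6 sample, 0 in 7 of 28 without and at least 1 read in all 16 sham mice (highest 37). The fitted difference from sham was -3.38 with a month 6 sample (SE 0.88, adjusted p = 0.0302, edgeR, Benjamini-Hochberg) and -0.95 without (SE 0.43, adjusted p = 0.27). The call held in 17 of 24 fits that left out 1 library and in 6 of 11 alternatives (adjusted p 0.0243 to 0.953). Under limma-voom the difference was -1.49 both without and with the mouse as a replicate block. Its adjusted p was 0.399 without the block and 0.408 with it (limma-voom, Benjamini-Hochberg). Without the sham mouse numbered 1038 the difference was -2.51 (adjusted p = 0.259, edgeR, Benjamini-Hochberg).

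Without a month 6 sample, 10 of 483 miRNA were called against sham (2.07%), 3 higher and 7 lower, in edgeR's quasi-likelihood test (63 at an unadjusted p under 0.05, 22 higher and 41 lower). The 7 include both miR-199a-3p and miR-199b-3p, which have the same bases. The split was 6 and 6 under limma-voom, 7 and 7 under DESeq2, 8 and 8 with DESeq2's size factors in edgeR, 6 and 4 with quantile-normalized RPM and 7 and 6 among miRNA of at least 10 CPM. The unequal group sizes, 8 and 28, give the smaller group wider intervals at the same spread. The plot of differences from sham gives both groups' values for each called miRNA.

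**Figure D3:**
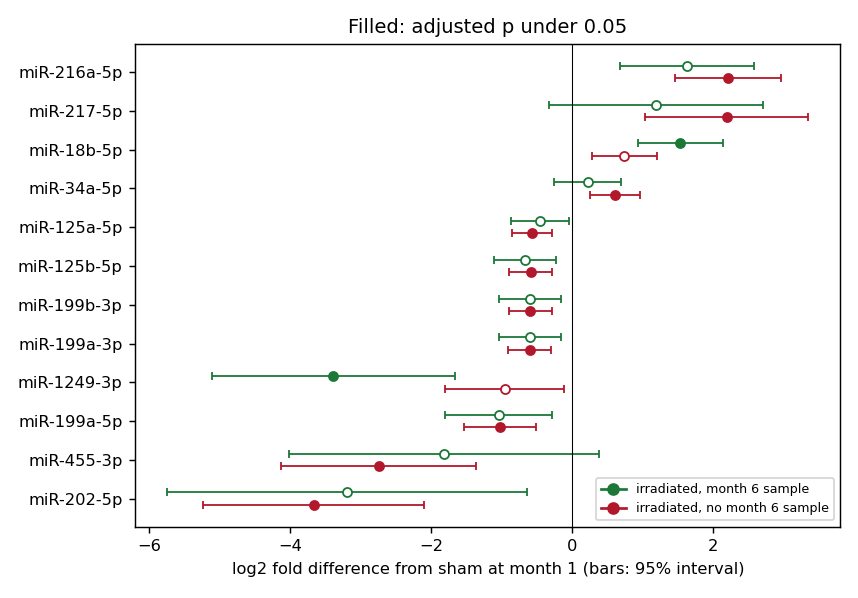
Log2 fold difference from the 16 sham mice at month 1 for the 12 miRNA called in either irradiated group, with 95% intervals (green, 8 mice with a month 6 sample; red, 28 without). Filled points passed an adjusted p of 0.05, and for miR-216a-5p the values are 1.64 and 2.22.

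miR-216a-5p and miR-217-5p, made chiefly by the acinar cells of the pancreas, were called above sham without a month 6 sample. miR-216a-5p ranged from 2.42 to 5.14 log2 CPM (median 3.61) with a month 6 sample, from 2.03 to 6.29 (median 4.11) without and from 0.23 to 4.09 (median 2.33) in sham mice. Both irradiated groups overlapped sham mice in their lower values. Its difference from sham was 2.22 without a month 6 sample (SE 0.38, adjusted p = 4.55e-06, edgeR, Benjamini-Hochberg), and 1.96 without the 4 females that stand apart (adjusted p = 0.0002). In males alone it was 1.75 (adjusted p = 0.0862), and the other 12 of 13 alternatives called it. With a month 6 sample it was 1.64 (SE 0.48, adjusted p = 0.0905, edgeR, Benjamini-Hochberg). This was called in 3 of 12 alternatives, under DESeq2 (adjusted p = 0.0454), quantile-normalized RPM with limma (0.0367) and edgeR among miRNA of at least 10 CPM (0.0376). It was also called without the sham mouse 1025 (1.83, adjusted p = 0.0398, edgeR) or 1027 (1.81, adjusted p = 0.037). The irradiated groups differed by -0.58 (95% interval -1.48 to 0.32).

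miR-217-5p was at 0 reads in 1 of 8 mice with a month 6 sample, in 7 of 28 without and in 7 of 16 sham mice. It was 2.20 above sham without a month 6 sample (SE 0.59, adjusted p = 0.0111, edgeR, Benjamini-Hochberg) and 1.19 with one (SE 0.77, adjusted p = 0.891). All 4 tested pancreas miRNA lay above sham without a month 6 sample (2 called, median 1.93, against -0.06 over all 483) and 3 of 4 did with one (median 0.72, against -0.07). miR-375-3p of the islets was 0.33 above sham without a month 6 sample (SE 0.17) and 0.24 with one (SE 0.23), and neither passed. Between the irradiated groups 0 of these 4 were higher (median -0.79). Before irradiation 0 of the 4 were higher as well (median -0.73). In the change from before irradiation to month 1, 2 of the 4 were higher with a month 6 sample (median 0.13).

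The mesenchymal miRNA miR-199a-5p and miR-199a-3p, which fibroblasts express from a shared hairpin, were below sham without a month 6 sample. From before irradiation to month 1, miR-199a-3p rose by a mean of 0.60 log2 units without a month 6 sample (n = 24). In sham mice it rose by 0.77 (n = 16). miR-199a-5p rose by 0.44 and 0.74 in the same order. Before irradiation miR-199a-3p averaged 9.94 without a month 6 sample and 10.21 in sham mice, and miR-199a-5p 4.68 and 5.09. miR-199a-3p ranged from 9.87 to 10.99 log2 CPM (median 10.47) with a month 6 sample, from 9.61 to 11.09 (median 10.52) without and from 10.03 to 11.97 (mean 10.99) in sham mice. The ranges of the irradiated groups overlapped almost fully and sham mice reached higher. miR-199a-3p was -0.60 against sham without a month 6 sample (SE 0.16, adjusted p = 0.0111, edgeR, Benjamini-Hochberg) and -0.59 with one (SE 0.22, adjusted p = 0.358). Between the irradiated groups the difference was 0.01 (95% interval -0.39 to 0.41). miR-199a-5p differed from sham by -1.02 and -1.04 and between irradiated groups by -0.02 (95% interval -0.70 to 0.67).

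miR-125a-5p and miR-125b-5p, which share a seed and are expressed in many tissues, were -0.57 and -0.59 against sham without a month 6 sample (both called) and -0.45 and -0.66 with one (neither called). miR-455-3p, from an intron of the collagen gene Col27a1, was -2.74 (called) and -1.81 (not called), with 0 reads in 24 of 28 mice, 7 of 8 and 3 of 16 sham mice. Without the 4 females that stand apart 6 miRNA were called. miR-199a-5p (-0.86), miR-199a-3p (-0.52) and miR-199b-3p (-0.52) then had an adjusted p of 0.0607 each and miR-125b-5p (-0.50) one of 0.0786 (edgeR, Benjamini-Hochberg), so these calls were lost at differences close to those of all 28 mice. Leaving out a single sham mouse also ended calls. miR-199a-3p, miR-199b-3p and miR-125b-5p were not called without 1015 or without 1016 (adjusted p 0.0531 to 0.096, edgeR, Benjamini-Hochberg), nor miR-199a-5p without 1025 (adjusted p = 0.0504).

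miR-34a-5p rested on those 4 mice most. It was 0.61 above sham without a month 6 sample (SE 0.18, adjusted p = 0.0312, edgeR, Benjamini-Hochberg) and 0.23 with one (SE 0.24, adjusted p = 0.953). When the 4 were left out the former was 0.34 (adjusted p = 0.501, edgeR, Benjamini-Hochberg), and the adjusted p ran from 0.0132 to 0.715 over 13 alternatives. The call was also lost without any 1 of these 4 mice (1097 to 1100) or of the sham mice 1014, 1015, 1028 and 1039 (adjusted p 0.0503 to 0.108, edgeR, Benjamini-Hochberg). Whether the month 1 level of those 4 mice belongs to their irradiation, sampling or handling was not tested.

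miR-202-5p, a miRNA that is rich in ovary and testis, fell without a month 6 sample and was low in irradiated females of both groups. In sham females it ranged from 3.56 to 6.05 log2 CPM at month 1 (mean 4.45 ± 0.79, SD, n = 8, up to 91 reads). In females with a month 6 sample the highest value was 2.91 (mean 1.19, n = 4) and in females without one 3.25 (mean 0.98, n = 16), so neither irradiated group overlapped sham females. Before irradiation the same groups averaged 4.85 with a month 6 sample, 4.59 without and 4.97 in sham females. In males it was at or near 0 reads in every group, with means of 0.71, 0.57 and 0.29.

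Over both sexes miR-202-5p differed from sham by -3.66 log2 units without a month 6 sample (SE 0.80, adjusted p = 0.00128, edgeR, Benjamini-Hochberg) and by -3.19 with one (SE 1.30, adjusted p = 0.384). Without a month 6 sample it was -1.16 under limma-voom (adjusted p = 0.619, Benjamini-Hochberg) and -1.18 under limma-voom with the mouse as a replicate block (adjusted p = 0.571). In females alone the difference was -4.16 without a month 6 sample (adjusted p = 3.14e-09, edgeR, Benjamini-Hochberg) and -3.34 with one (adjusted p = 0.105). Over 13 alternatives the adjusted p of the former comparison ran from 3.14e-09 to 0.692. Between the irradiated groups the difference was 0.47 (95% interval -2.24 to 3.17). Plasma alone does not tell less RNA per cell from fewer cells of that type.

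**Figure D4:**
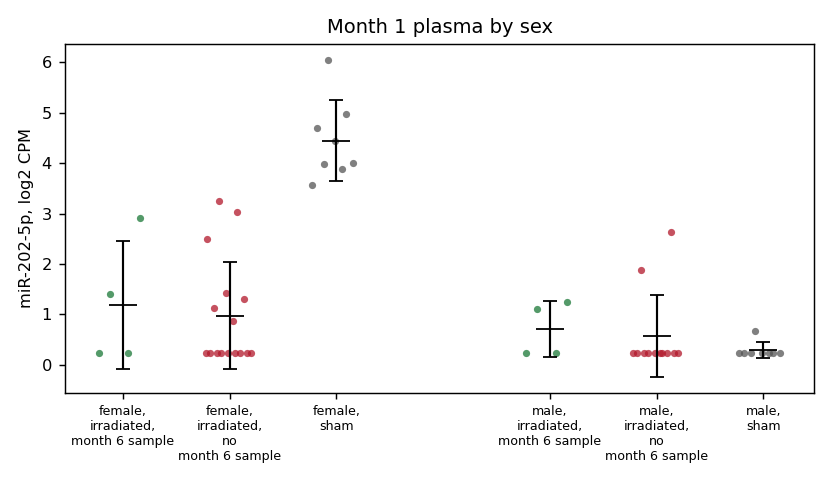
miR-202-5p in log2 CPM for each mouse at month 1, by sex and group, with the mean and SD. Sham females lie from 3.56 to 6.05, all irradiated females at or below 3.25, and sham males average 0.29.

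Before irradiation the same groups, 8 mice with and 24 without a month 6 sample, were compared in the same way. The test called 3 of 483 miRNA (0.621%), 1 higher and 2 lower with a month 6 sample, in edgeR's quasi-likelihood test, with 25 at an unadjusted p under 0.05 (3 higher, 22 lower). These 3 were named after their values were seen. miR-138-2-3p and miR-188-5p had 0 reads in all 8 mice with a month 6 sample and in 8 and 13 of 24 without. miR-410-3p had reads in 2 of 8 mice (up to 15) and in 2 of 24 (up to 2), with a fitted difference of 3.65. With the mouse as a replicate block 0 were called, and limma-voom and DESeq2 called 0 as well, with 16 and 22 at an unadjusted p under 0.05.

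The level at month 1 was also tested against the last sampled month over all 36 irradiated mice, with the 8 at month 6. miR-216b-5p and miR-135a-5p were called (2 of 483, 0.414%), both lower with later last sampling, in edgeR's quasi-likelihood test (49 at an unadjusted p under 0.05, 20 higher and 29 lower). miR-216b-5p is a pancreas miRNA that sat at the limit of detection. It had reads in 3 of 5 mice last sampled at month 2 (up to 5 reads), 1 of 2 at month 3, 2 of 8 at month 4, 1 of 13 at month 5 and 0 of 8 at month 6. The slope was -1.31 log2 units a month (SE 0.29, adjusted p = 0.0192, edgeR, Benjamini-Hochberg). The call was lost without the mouse numbered 1035 (-1.06, adjusted p = 0.172) and in 4 of 5 alternatives. It was -0.91 with sex as a covariate (adjusted p = 0.207, edgeR, Benjamini-Hochberg), -1.17 without the 4 females that stand apart (adjusted p = 0.0667), -1.33 in the 28 mice alone (adjusted p = 0.158) and -0.32 under limma-voom (adjusted p = 0.561).

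miR-135a-5p averaged 5.23 log2 CPM at last month 2, 6.17 at month 3, 4.61 at month 4, 3.92 at month 5 and 3.83 at month 6, and 4.73 in sham mice. Its slope was -0.54 a month (SE 0.12, adjusted p = 0.0192, edgeR, Benjamini-Hochberg). A single mouse last sampled at month 2, numbered 1006, held 1150 reads, and without it the slope was -0.36 (adjusted p = 0.367, edgeR, Benjamini-Hochberg). Without the mouse numbered 1048 the adjusted p was 0.0757. The call was lost without the 4 females that stand apart (-0.51, adjusted p = 0.0667, edgeR, Benjamini-Hochberg) and under limma-voom (-0.54, adjusted p = 0.0885), and held in 3 of 5 alternatives. Only 2 mice have month 3 as their last sampled month, so that mean is thin.

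The pancreas miRNA called against sham, miR-216a-5p and miR-217-5p, were not called on this slope. miR-216a-5p averaged 4.50, 4.30, 4.66, 3.69 and 3.77 log2 CPM at last months 2 to 6, with a slope of -0.29 (adjusted p = 0.439, edgeR, Benjamini-Hochberg). miR-217-5p averaged 2.93, 1.82, 2.45, 1.37 and 1.63, with a slope of -0.57 (adjusted p = 0.256). miR-18b-5p had means of 4.95, 4.97, 5.34, 5.21 and 6.00, and its slope was 0.21 (adjusted p = 0.339). The next smallest p-values of the slope belonged to miR-350-5p (-1.32), miR-365-3p (-0.32) and miR-219a-2-3p (-0.87), none of them called.

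**Figure D5:**
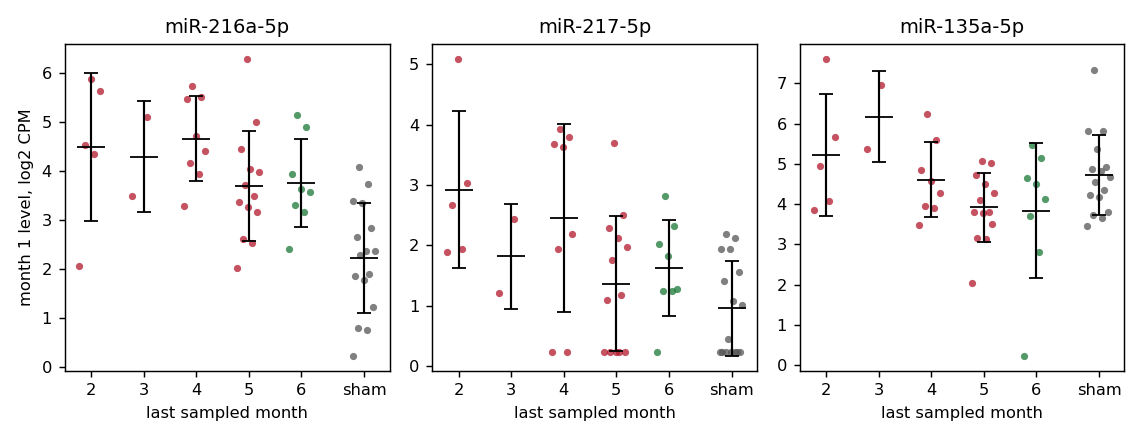
Month 1 level in log2 CPM of miR-216a-5p, miR-217-5p and miR-135a-5p for each mouse by its last sampled month (green, month 6; red, earlier; grey, sham), with mean and SD. For miR-135a-5p the mice last sampled at month 2 average 5.23 and those sampled to month 6 average 3.83, with the highest mouse at 7.61.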

How the data were processed

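The authors isolated RNA from plasma, prepared small RNA libraries, trimmed and aligned the reads with Illumina's BaseSpace Small RNA application and deposited raw counts per mature miRNA, after leaving out hemolysed plasma and thin libraries. The miRBase release was not given in the sources used here. Of 1915 miRNA, filterByExpr kept 483, with 99.99% of reads.

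In R 4.3.3, counts were normalized by TMM and fitted with edgeR 4.0.16 (quasi-likelihood) over all plasma samples with 1 mean for each of 56 groups. limma 3.58.1 and DESeq2 1.42.0 were alternatives. p-values were adjusted (Benjamini-Hochberg) over all miRNA tested, with a threshold of 0.05. The change from before irradiation used the mouse as a fixed block over 48 mice, and the slope used the 36 irradiated mice. Mouse numbers mark the same animal, which pairs the samples. Over 123 abundant miRNA, samples of the same mouse correlated at 0.015 after removing group means, and those of other mice at -0.00163.

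Named miRNA were the smallest p-values of each comparison (5 higher and 5 lower in the main one), the study's survival list and the most abundant or lowest-p list members. Members and lists were chosen with earlier results of these data known. Intervals are for differences between group means. Their spread was estimated over all plasma samples of the fit, in which samples of the same mouse entered as separate. The labels do not say whether preparation batches differed.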

Additional observations from a re-analysis of the deposited data

Results flagged for a closer look

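Within the 8 mice with a month 6 sample, 37 miRNA were checked for a single mouse far from the others by Dixon's ratio. It flags about 1 in 20 groups by chance where values are normally distributed. Where 7 of 8 mice have 0 reads any read in the other is flagged, so that rate does not hold there. In 4 of the 37 miRNA a mouse stood apart. miR-29c-5p was at 1.241 log2 CPM in 1 mouse and at 0 reads in the other 7, and miR-455-3p was at 2.471 in 1 mouse and at 0 reads in the others. miR-202-5p was at 2.909 in 1 female, with the next mouse at 1.396. miR-365-3p was low in 1 mouse, at 1.708 against 4.725 in the nearest. The first pair of values rest on 1 and 3 reads.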

How the results depend on the processing

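Between the irradiated groups at month 1 the count of 0 called miRNA held under limma-voom, DESeq2, the other scalings, the covariates, males, females, bleed groups and every left-out mouse (0 to 0), and these alternatives other than the left-out mice had 10 to 43 at an unadjusted p under 0.05. Without a filter on low counts 7 were called, all outside the 483 and with reads in at most 4 of the 8 mice. For mice with a month 6 sample against sham, 1 was called under limma-voom, under the mouse as a replicate block and with only month 1 samples, 4 under DESeq2, 11 without a filter, 0 in males and 1 to 3 with a mouse left out. It was 1 without the mice numbered 1024, 1029, 1030, 1042 or 1046, or the sham mouse 1038. For mice without one against sham, 16 were called with DESeq2's size factors, 80 without a filter, 6 without the 4 females, 0 in males, 3 in females and 7 to 20 with a mouse left out. It was 17 without 1017, 1021, 1033 or the sham mouse 1027, 18 without 1047 and 20 without the sham mouse 1040. Before irradiation 0 were called under limma-voom, the block, DESeq2, quantile-normalized RPM, at least 10 CPM and only that time point, and 23 without a filter. The paired change from before irradiation had 0 calls throughout, also with no replicate block. For the last sampled month 1 was called under limma-voom, 54 without a filter, 0 without the 4 females, 1 in the 28 mice alone and 1 to 5 with a mouse left out. It was 5 without 1017 or 1032, 4 without 1033 and 1 without 1048. Fits of males, females and left-out mice against sham, and left-out mice for the slope, were chosen after seeing the data. The block lost no calls besides those given in the text, and limma-voom without the block lost the same ones. Sign changes between the irradiated groups were all of uncalled differences. With limma-voom, miR-199a-5p (0.048), miR-125a-5p (-0.063), miR-199a-3p (-0.0024), miR-199b-3p (-0.020) and miR-96-5p (0.25) changed sign. With the mouse as a replicate block, miR-199a-5p (0.046), miR-125a-5p (-0.063), miR-199a-3p (-0.0025), miR-199b-3p (-0.021) and miR-96-5p (0.24) changed sign. With DESeq2, miR-199a-3p (-0.016) and miR-199b-3p (-0.021) changed sign. With DESeq2's size factors, miR-199a-3p (-0.016) and miR-199b-3p (-0.021) changed sign. With quantile-normalized RPM, miR-125a-5p (-0.035) and miR-96-5p (0.19) changed sign. With no filter, miR-199a-5p (0.021) changed sign. With at least 10 CPM, miR-199a-5p (0.045) changed sign. With only month 1 samples, miR-199a-3p (-0.0036) and miR-199b-3p (-0.0076) changed sign. With sex as a covariate, miR-199a-3p (-0.0038) and miR-199b-3p (-0.0087) changed sign. With bleed group as a covariate, miR-199b-3p (-0.0011) changed sign. With the 4 females left out, miR-199a-3p (-0.068), miR-199b-3p (-0.070), miR-100-5p (-0.11) and miR-802-5p (0.030) changed sign. With only males, miR-216a-5p (0.32), miR-125b-5p (0.0099), miR-455-3p (-1.33), miR-100-5p (-0.17) and miR-802-5p (0.14) changed sign. With only females, miR-199a-5p (0.12), miR-125a-5p (-0.55), miR-199a-3p (-0.028) and miR-199b-3p (-0.064) changed sign. With only bleed group A, miR-125b-5p (0.057), miR-455-3p (-2.40) and miR-199b-5p (0.053) changed sign. With only bleed group B, miR-202-5p (-1.17), miR-199a-3p (-0.17), miR-199b-3p (-0.18), miR-100-5p (-0.57), miR-122-5p (-0.038) and miR-802-5p (0.073) changed sign. With 1 mouse left out, the sign changed for miR-100-5p (-0.11 to 0.20), miR-125a-5p (-0.069 to 0.25), miR-125b-5p (-0.27 to 0.040), miR-199a-3p (-0.076 to 0.079), miR-199a-5p (-0.27 to 0.13), miR-199b-3p (-0.090 to 0.087), miR-202-5p (-0.69 to 0.75), miR-455-3p (-1.99 to 1.62) and miR-96-5p (-0.55 to 0.11). Against sham in males, where it is near 0 reads, miR-202-5p came to 2.22 with and 2.00 without a month 6 sample. The cause of these changes was not tested. With 8 mice and low reads, differences under about the interval widths given could go uncalled, and so could larger ones after adjustment.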
